A study of Mus musculus with 9 samples.

Results

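Chromosome 4 was examined probe by probe in 9 mouse mammary tumours of models with floxed Rb and p53, of which one, MMTV-Cre transplant 4, carried a stepwise pattern of losses, gains and stretches between them. All array probes of the chromosome were taken except those between positions 111700000 and 113650000, which left 55830 of the 914119 autosomal probes. The choice used the measured log ratios of these tumours, so the levels on this chromosome are given as a description. Of the probes, 55740 were measured on all 9 arrays, 54 on some arrays and 36 on none. Their median spacing was 1794 bp, and they ran between positions 3347008 and 155629081 of a genome build that the files do not name.

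All tumours came from mice of mixed background with floxed Rb and p53 alleles. In 7 tumours Cre recombinase was under the MMTV promoter, known for its activity in the mammary epithelium, and these were 1 tumour of a nulliparous mouse, 1 of a parous mouse and 5 labelled as transplants. In the other 2 tumours, also labelled as transplants, Cre came from the adenovirus Ad-CMVcre. Tumour DNA was labelled with Cy5, and DNA pooled from tails of mice without tumours with Cy3, and both were hybridised to 1 array per tumour. The pool was the reference on every array, no dyes were swapped, and no array compared the pool with other normal DNA. Whether transplants shared a donor was not examined. Values are log2 ratios of tumour over pool, centred on the autosomal median of the array, so that 0 is the middle of the genome of that tumour and not a known copy number.

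In such an array a DNA stretch with more copies than the genome's middle lies above 0 and one with fewer copies below it, with sharp steps where a copy change begins or ends. Normal cells in a tumour sample bring both kinds of step nearer to 0, and a change in part of the tumour cells cannot be told apart from a smaller change in all of them. Mouse chromosome 4 holds Cdkn2a and Cdkn2b, which encode inhibitors of cell cycle kinases and are known as tumour suppressor genes. It also holds Mtap, Pax5, Jun, Jak1, Mycl, Runx3, Arid1a, Trp73, Chd5, Epha2, E2f2, Id3, Mtor, Cdc20, Mutyh and Lck. All 18 genes were placed on the chromosome by their names alone. The array's positions share no stated build with a gene table, so no gene is assigned to a stretch here.

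The median tumour signal was 14.9 to 17.9 times its local background and the median pool signal 21.8 to 32.4 times. On chromosome 11, the chromosome of Trp53, a run of probes was chosen for lying below its surroundings in most of these tumours. It spanned positions 69397121 to 69402566 and lay at 30.7% to 59.8% of its surroundings in 8 tumours. The choice made low levels likely, and no gene position ties the run to Trp53, so these levels do not check the labels. The level of the run was 37.4% in MMTV-Cre transplant 4. By contrast, 97.8% was kept in the library labelled MMTV-Cre transplant 2, so that library did not show the reduction. Loss of Trp53 was not established by this run, and loss of Rb was not checked in any tumour.

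The whole-chromosome median hid the pattern. In MMTV-Cre transplant 4 the median log2 ratio of chromosome 4 was 0.00, with quartiles at -0.25 and 0.21. In the other MMTV-Cre transplants the median was 0.18, -0.04, 0.02 and 0.06. It was 0.06 in the nulliparous and 0.01 in the parous tumour, and 0.19 and 0.01 in the Ad-Cre transplants. The mean over all tumours was 0.06 ± 0.08 (SD, n = 9), with 8 of 9 medians above 0, and without MMTV-Cre transplant 4 it was again 0.06 ± 0.08 (SD, n = 8). MMTV-Cre transplant 4 thus lay inside the range of the others by its median, while its quartiles lay apart by more than in any other tumour.

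**Figure D1:**
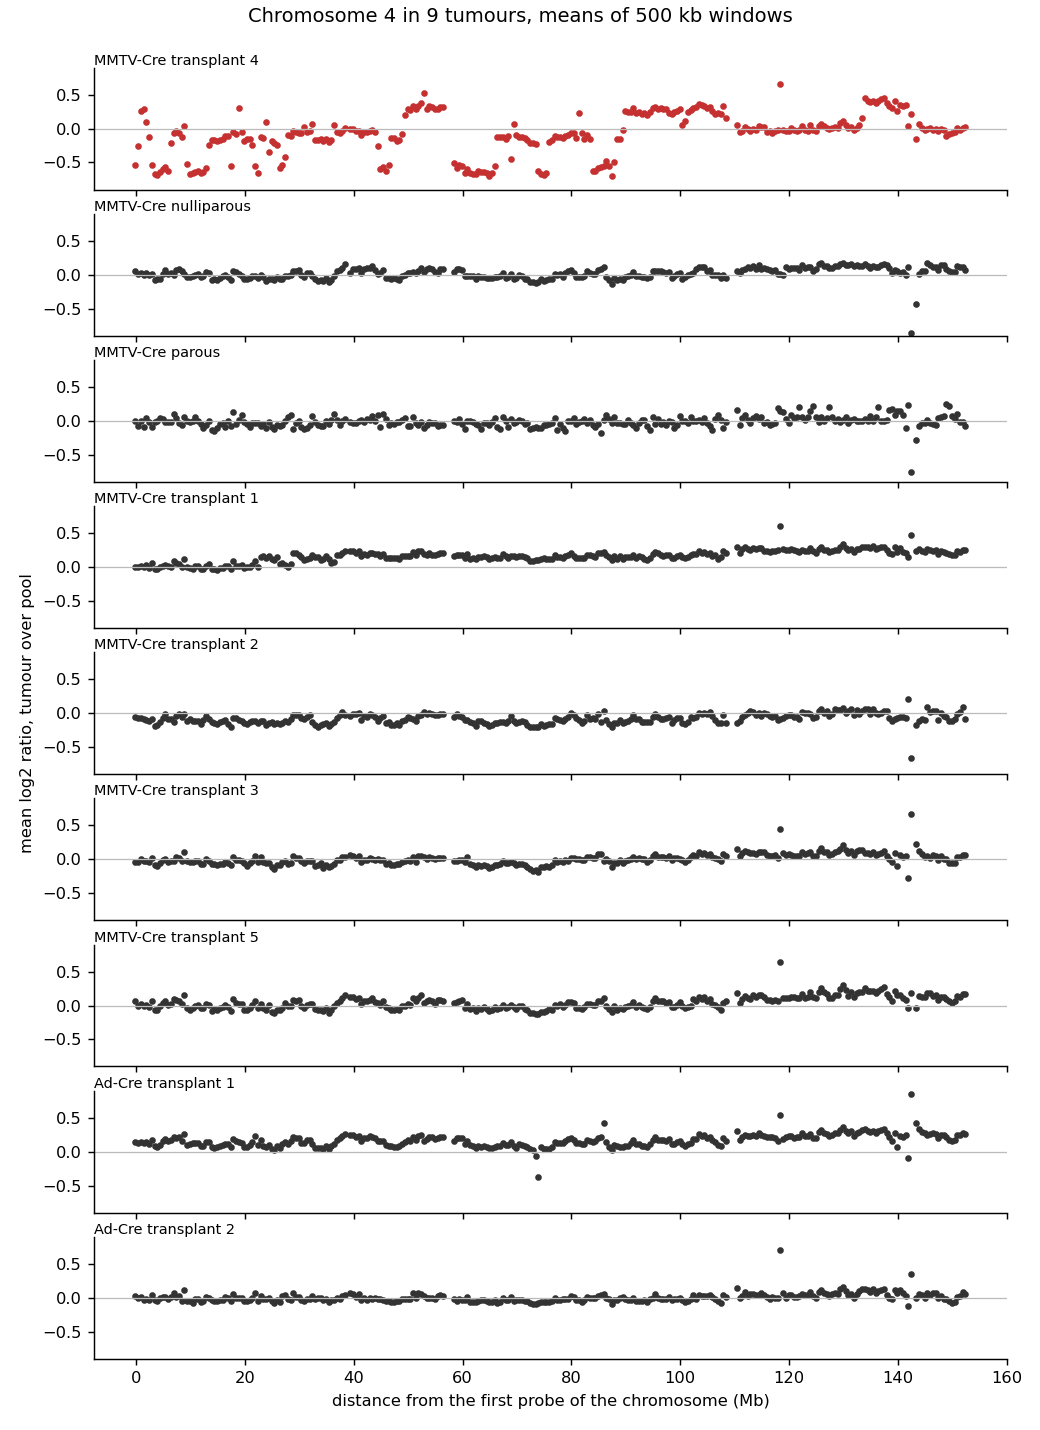
Mean log2 ratio of tumour over pool in 500 kb windows (points) along chromosome 4, by distance from the first probe in Mb, with 1 panel per tumour and MMTV-Cre transplant 4 on top. Its windows fall into separate bands in the first part of the chromosome. Those of the other 8 tumours show slow waves and no such bands, with a rise in MMTV-Cre transplant 1 beyond its first 22.9 Mb. Single windows stand apart. At 118.4 Mb MMTV-Cre transplants 1, 3, 4 and 5 and both Ad-Cre transplants lie at 0.44 to 0.70. The nulliparous tumour, the parous tumour and MMTV-Cre transplant 2 lie there at 0.02, 0.14 and -0.09. At 142.4 Mb the tumours spread between -0.87 and 0.85.

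Steps between neighbouring segments were counted where segment means differed by at least 0.2. MMTV-Cre transplant 4 had 45 such breakpoints on chromosome 4. The other MMTV-Cre transplants had 2, 2, 2 and 4, the nulliparous tumour 2 and the parous tumour 12, and the Ad-Cre transplants 10 and 4. No other autosome of MMTV-Cre transplant 4 held as many, and its autosomes held 136 in all. Of its 45 steps, 22 went down and 23 went up along the chromosome. The step sizes lay between 0.25 and 0.86, with a median of 0.46. The steps were sharp on the scale of the array, with a median of 3708 bp between the probes on either side.

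The breakpoints were counted before and beyond the end of the last lost stretch. In MMTV-Cre transplant 4, 37 of the 45 lay in the first 87.9 Mb of probes, which end with the last lost stretch at position 91267740. The remaining 64.4 Mb held 8. The dividing point was set by the lost stretches, and each of them brings steps at its own borders. The larger count before that point therefore partly restates where the losses lie. Whether the remaining steps were spread evenly was not tested.

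Segments at -0.25 or less, called lost, covered 17.8% of the segmented length of chromosome 4 in MMTV-Cre transplant 4. Segments at 0.25 or more, called gained, covered 23.5% of that length. On its other autosomes together the lost share was 0.0212% and the gained share 10.9%. The pattern was therefore not one of losses alone, and the gained share was larger than the lost one. The gained share depended on the threshold, since the upper stretches lay close to it. It was 2.83% at a threshold of 0.4, and 11.9% when each probe's median over the other 8 arrays was first taken off. The lost share was 25% with a threshold of -0.15 and stayed at 17.8% with -0.4.

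By windows of 100 kb, MMTV-Cre transplant 4 had 289 of 1449 chromosome 4 windows at -0.25 or less, which is 19.9%, beside 2.37% of its autosomal windows. It had 282 at 0.25 or more, which is 19.5%, beside 11.6% of its autosomal windows. The same values chose the chromosome, so these shares only describe it.

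The chromosome of MMTV-Cre transplant 4 was cut into 50 segments, 36 of them at least 1 Mb long and 14 shorter. The longer ones measured 1.12 to 14.8 Mb, with means between -0.68 and 0.42. The lowest of them lay between positions 77069968 and 79019806, with a mean of -0.68 ± 0.01 (SE over 440 probes). It was followed by 90142854 to 91267740 at -0.67 ± 0.01 over 260 probes. The longest lost segment, 63422111 to 69411834, held 1835 probes over 5.99 Mb at -0.66 ± 0.01. These 3 lost segments lie apart from each other and at nearly one level. The longest directly followed another lost segment, 61673563 to 63419846, at -0.55 over 830 probes, so the unbroken loss was longer.

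The next 3 lost segments lie nearer to the start of the chromosome. Segment 12718349 to 16609640 had a mean of -0.64 over 1175 probes. Segment 6109627 to 9574105 had a mean of -0.62 over 1145 probes. Segment 24820558 to 26029099 had a mean of -0.62 over 380 probes. All 6 were lost in MMTV-Cre transplant 4 by a similar amount although their lengths differed.

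Among the longer segments, the 4 highest were gained. The highest was 136867458 to 141173600 at 0.42 ± 0.01 (SE over 2335 probes), and its neighbour 141174764 to 145022729 lay at 0.35. Segment 104162377 to 109359803 lay at 0.31 over 2520 probes. The longest of the 4, 52585011 to 61664667, lay at 0.31 over 2935 probes and 9.08 Mb. It ended at the only place where the upper level met the lower one with no segment between them. No 500 kb window had a value between those starting at 59500001 and 61500001. A middle stretch just before that end could therefore have been missed.

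Short segments took the same levels as long ones. Among those under 1 Mb the lowest was 20497088 to 20713073 at -0.70 ± 0.03 (SE over 125 probes). Segments 27745196 to 28016148, 72052046 to 72426874 and 3347008 to 3662535 had means of -0.61, -0.58 and -0.58, over 40, 45 and 115 probes. The highest short segments were 22052578 to 22596098 at 0.32, 35390811 to 35803990 at 0.31, 39818023 to 40058091 at 0.25 and 84475074 to 85087276 at 0.23. A stretch of 0.103 Mb at -0.14, between positions 101341183 and 101444044, was the shortest to be resolved at 50 probes or more.

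**Figure D2:**
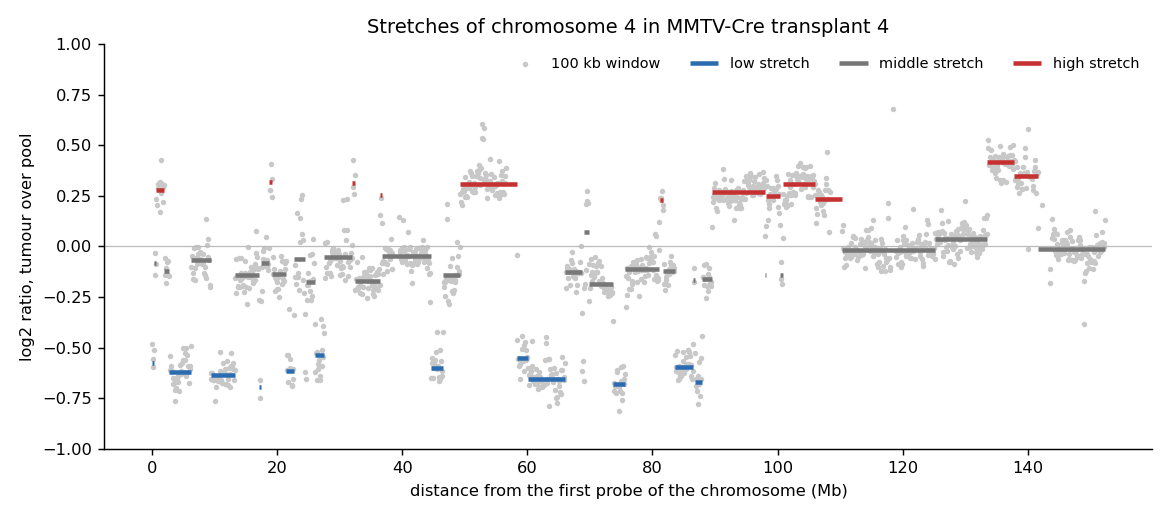
Log2 ratio of tumour over pool in MMTV-Cre transplant 4 by distance from the first probe of chromosome 4 in Mb, as means of 100 kb windows (points) and of segments of at least 50 probes (bars, coloured by level). Low stretches near -0.62 alternate with middle and high ones in the first part of the chromosome and are absent from the rest, where middle stretches near -0.05 and high stretches near 0.31 remain.

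Single steps were read from 20 probes on each side. At position 86908166 MMTV-Cre transplant 4 had means of -0.10 before and -0.58 after the step, a difference of -0.49, while the differences in the other 8 tumours lay between -0.06 and 0.01. At position 61673563 the difference was -0.68 in MMTV-Cre transplant 4 and between -0.14 and -0.04 in the others. The short middle stretch that starts at 101341183 was entered with a difference of -0.49, against -0.10 to 0.14 in the others, and left with 0.49, against 0.07 to 0.15 in the others. These places were chosen on MMTV-Cre transplant 4, so the differences there carry no test. At some steps all 8 other tumours also showed a difference of the same sign over these few probes. At position 6109627 it was -0.75 in MMTV-Cre transplant 4 and between -0.64 and -0.08 in the others. At 35805633 it was -0.70 against -0.51 to -0.09, and at 40060283 it was -0.42 against -0.33 to -0.06. At other steps the range of the others spanned 0 or had the opposite sign.

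The segment means of MMTV-Cre transplant 4 gathered at a small number of levels. Taken as 2 levels, segments of at least 50 probes left much of their spread unexplained, since the split covered 68.5% of the variance between segments. A split into 3 levels covered 96.2%. The low level was -0.62 ± 0.05 (SD over 12 segments), a ratio of 0.650, over 26.4 Mb. The middle level was -0.05 ± 0.07 (SD over 24 segments), a ratio of 0.963, over 84.4 Mb. The high level was 0.31 ± 0.05 (SD over 12 segments), a ratio of 1.24, over 40.7 Mb. The stretches of MMTV-Cre transplant 4 therefore had 3 separate levels, with no segment between -0.54 and -0.18.

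The same tumour's other chromosomes lay at comparable values. Chromosomes 3, 8 and 10 had medians of 0.30, 0.32 and 0.26, chromosome 5 lay at 0.16, and the remaining autosomes other than chromosome 4 lay between -0.09 and 0.02. The high level of chromosome 4 was thus near the medians of chromosomes 3, 8 and 10, and its middle level within the range of the remaining autosomes. The low level had no counterpart among the chromosome medians.

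Most arrays shared a slow wave along chromosome 4, from which the parous array departed in the later part. In 500 kb windows from 127500001 and 133000001 the parous tumour lay at 0.22 and 0.02, and the nulliparous tumour at 0.06 and 0.17. Each probe's median over the other 8 arrays was also taken off, a step added after the values had been seen. The noise of single probes in MMTV-Cre transplant 4 was then 0.0924, against 0.183 before. Segments of at least 40 probes fell on 4 levels, at -0.61 ± 0.04 (SD, 13 segments), -0.11 ± 0.02 (27 segments), 0.25 ± 0.02 (18 segments) and 0.53 (2 segments). With 3 levels and 50 probes or more in both cases, the SD of the middle level was 0.01 with this step and 0.07 without it, and that of the high level 0.07 with it and 0.05 without it. As ratios the levels were 0.656, 0.926, 1.19 and 1.44, which are 0.270, 0.263 and 0.25 apart, so the steps were close to equal on the ratio scale. A split of the same segments into 3 levels, with the 2 highest segments in the top one, covered 99.6% of the variance between segments. The fourth level rested on 110 probes.

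The 2 segments of the fourth level lay inside high stretches. One was 22359924 to 22430069, of 40 probes, and the other 55955646 to 56396325, of 70 probes. Both were bordered by the high level on each side.

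**Figure D3:**
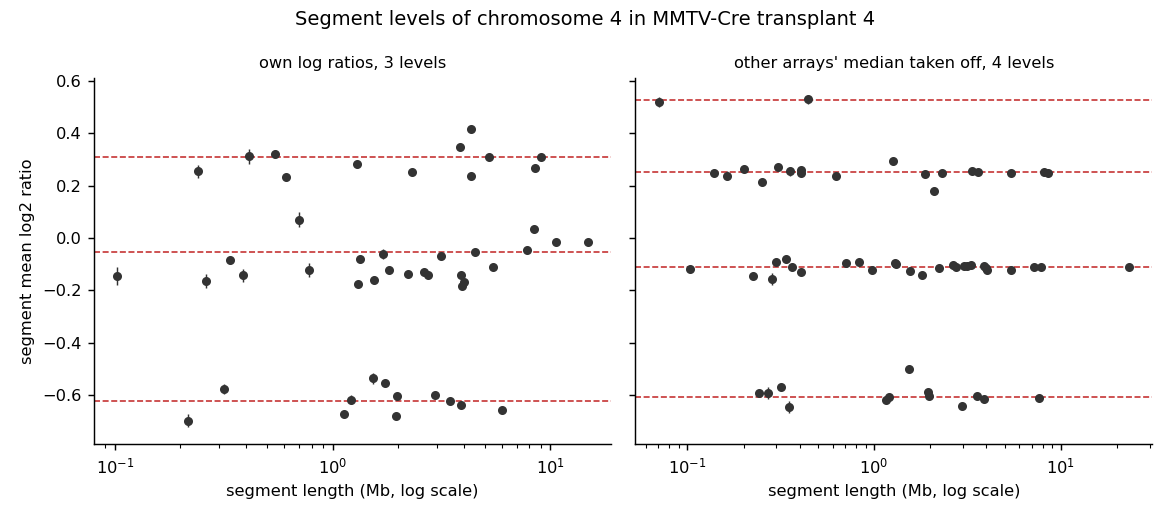
Mean log2 ratio of each chromosome 4 segment of MMTV-Cre transplant 4 (points, with SE over probes) against its length in Mb on a log scale, from the array's own values (left, 3 levels) and after the other arrays' median was taken off (right, 4 levels), with level means as dashed lines. Short and long segments share the levels, and points of the middle level scatter less on the right.

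The order of the levels was regular. Segments under 50 probes were left out, and neighbours of one level among the rest were joined. This gave 41 stretches in MMTV-Cre transplant 4, of which 11 were low, 20 middle and 10 high. The cut dropped the lost segments 27745196 to 28016148, of 40 probes, and 72052046 to 72426874, of 45 probes. Middle stretches on either side of each were joined across it, so these counts leave both losses out. Of the 40 switches between the stretches, 20 joined a low and a middle stretch, 19 joined a middle and a high one, and 1 joined a low and a high one. After the other arrays' median was taken off, segments of at least 40 probes gave 56 switches. Of these, 24 joined low and middle, 27 middle and high, 4 high and highest, and 1 low and high. Nearly all switches thus went to the adjacent level.

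The steps lay in the tumour channel. The log2 signal of each channel was set against the mean of the same probes on the other 8 arrays. In MMTV-Cre transplant 4 the tumour channel lay between -0.63 and -0.50 in low stretches, between -0.18 and 0.08 in middle stretches and between 0.21 and 0.31 in high stretches. The pool channel of the same array lay between -0.013 and 0.010 over all of them. The median pool signal was 1114 in lost and 1112 in retained stretches, where retained means both upper levels.

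**Figure D4:**
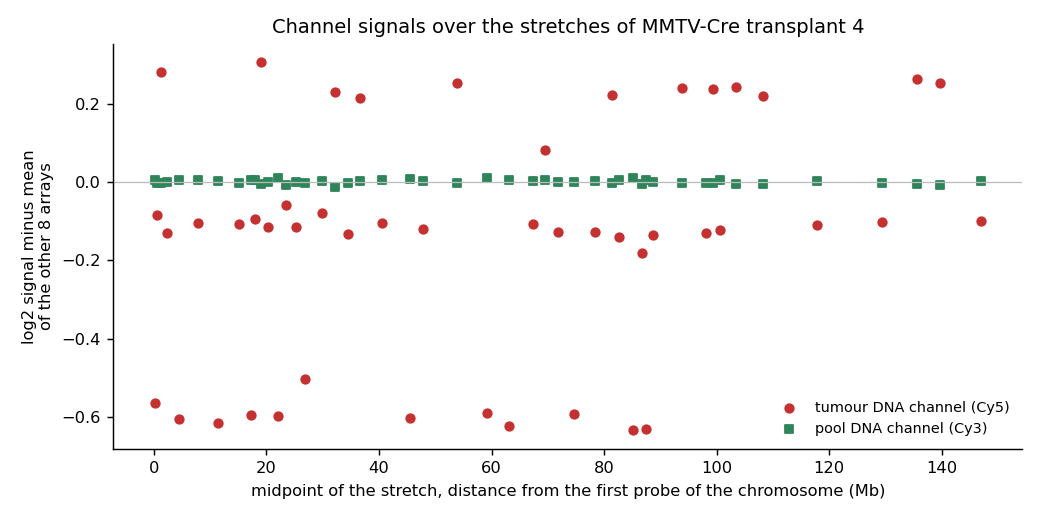
Log2 processed signal of MMTV-Cre transplant 4 minus the mean of the same probes on the other 8 arrays, for the tumour channel (circles) and the pool channel (squares), by the midpoint of each chromosome 4 stretch as distance from the first probe in Mb. Tumour values fall into bands at about the 3 levels, and pool values stay between -0.013 and 0.010.

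The stretches set by MMTV-Cre transplant 4 were then read in the 8 tumours that had not set them. Its lost stretches held 8515 probes and its retained ones 47230, and the difference of their means was -0.69 in MMTV-Cre transplant 4. In the other tumours the difference lay between -0.09 and -0.03, with a mean of -0.06 ± 0.02 (SD, n = 8). It was below 0 in 8 of 8 tumours. No test is given, because the chromosome was chosen on the profiles of these tumours too. Their arrays also share the pool and, in most of them, the slow wave. The difference in the other tumours was far smaller than in MMTV-Cre transplant 4. Once the other arrays' median was taken off each probe, it was -0.62 in MMTV-Cre transplant 4 and between -0.01 and 0.06 in the others. Taking off that median places the other tumours around 0 by construction, so their signs there say nothing about the cause of the small difference, which was not tested.

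Arrays were scanned on 3 days, per the file headers. MMTV-Cre transplants 3 and 5 shared the day of MMTV-Cre transplant 4, in which the difference was -0.69, and had differences of -0.07 and -0.08. The single-probe noise of MMTV-Cre transplant 4, at 0.183, was the highest of the 9, and that of the others lay between 0.159 and 0.171.

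The other tumours carried few called segments on chromosome 4. MMTV-Cre transplant 1 had the widest gain, between positions 111056218 and 138871568, at 0.26 over 12265 probes and 27.8 Mb. Its first 22.9 Mb lay at 0.01, and its further segments, apart from a short one described below had means between 0.13 and 0.26. Within them it lay lower again, at 0.05, over positions 29337708 to 30877356, a stretch set by MMTV-Cre transplant 4 and not by its own borders. In windows of 500 kb MMTV-Cre transplant 1 stayed low beyond it, at 0.002 and 0.04 from 31000001 and 31500001, and reached 0.21 from 32000001. It was low again, at 0.05 and 0.07, from 39000001 and 39500001. Ad-Cre transplant 1 had a gain of 12.7 Mb between 128480506 and 141223107 at 0.30. Gained segments covered 18.3% of the segmented length in MMTV-Cre transplant 1 and 8.54% in Ad-Cre transplant 1.

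Ad-Cre transplant 1 also had small sharp changes. Segment 76923787 to 77366838 was lost at -0.50 over 160 probes, and it overlapped the lowest long segment of MMTV-Cre transplant 4. Segment 89067991 to 89261000 was gained at 0.62 over 55 probes, inside a stretch that was lost at -0.60 in MMTV-Cre transplant 4. Nearer the end of the chromosome, 143282342 to 143412508 was called lost at -0.30 over 25 probes.

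The parous tumour had 12 breakpoints. Its only called segment was a loss of 0.132 Mb between 82078412 and 82210398, at -0.33 over 75 probes. It also had 7 short segments at 0.18 to 0.24, below the threshold for a gain, all starting at position 98282389 or beyond. With the other arrays' median taken off, and segments of any size counted, it had 63 breakpoints, as did MMTV-Cre transplant 4, while the nulliparous tumour had 57, MMTV-Cre transplant 2 had 42 and the remaining tumours at most 12. With segments of at least 40 probes the parous tumour had 29 and MMTV-Cre transplant 4 had 56, and the remaining tumours had at most 4. The count of steps after this correction therefore depended on the shortest segment allowed. The parous array departed from the slow wave of the others, and whether the correction added steps to it was not tested.

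The nulliparous tumour had 1 called segment, 145079001 to 147251838, at -0.34 over 60 probes with an SD of 0.92 between probes. Short calls of similarly scattered probes recurred elsewhere. Segments within 12024413 to 12086745 were called gained in 4 tumours, at 0.66 to 0.78, with SDs between probes of 1.0 to 1.44. MMTV-Cre transplant 3 had no other call on chromosome 4. MMTV-Cre transplants 1 and 5 shared a call within 138860754 to 138905864, at 0.88 and 0.70. Ad-Cre transplant 1 had a call at 25207713 to 25232528 of 1.33 over 10 probes, and Ad-Cre transplant 2 had one at 32126940 to 32195316 of 0.64 over 15 probes. In these short calls the SD between probes was larger than or close to the size of the mean.

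The lowest run of the chromosome was in the library labelled MMTV-Cre transplant 2, in 12 neighbouring probes between positions 88911815 and 88930670, over 18856 bp. Its probes lay between -2.77 and -1.64, with a mean of -2.26. This was -2.31 relative to 20 probes on each side, or 20.2% of their level. Over these probes the processed tumour signal was 79.2 to 538 and the pool signal 245 to 2235. The same probes lay at 101% to 108% of their surroundings in the other 8 tumours. In MMTV-Cre transplant 4 they lay at -0.48, within its lost stretch between 86908166 and 89871451, and at 101% of their surroundings. The deep run was therefore present in 1 library, and the shallower loss around it in MMTV-Cre transplant 4 showed no further drop there.

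**Figure D5:**
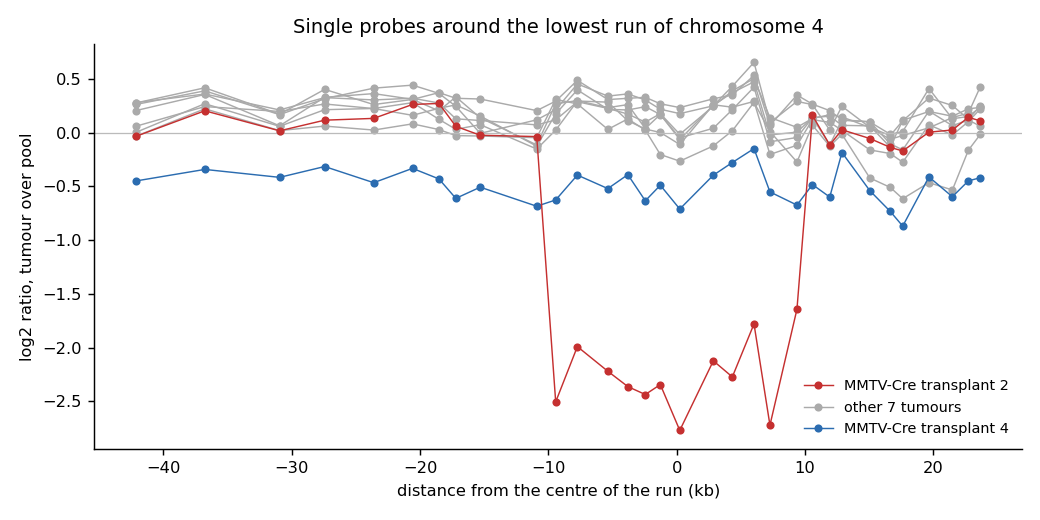
Log2 ratio of tumour over pool of single probes by distance in kb from the centre of the lowest run of chromosome 4, for MMTV-Cre transplant 2, MMTV-Cre transplant 4 and the other 7 tumours. The 12 probes of MMTV-Cre transplant 2 lie between -2.77 and -1.64, and both borders fall between neighbouring probes, while MMTV-Cre transplant 4 stays on its low level throughout.

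A chromosome with more steps was found in another tumour. In MMTV-Cre transplant 1, chromosome 8 had 70 breakpoints, with 23.3% of its segmented length lost and 43.8% gained. Its segments lay between -0.43 and 1.85, against -0.70 to 0.42 on chromosome 4 of MMTV-Cre transplant 4. Chromosome 4 of MMTV-Cre transplant 4 thus had fewer steps, a deeper lowest segment and a lower highest segment than that chromosome. Both are single tumours, so the difference has no replicate check.

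Contrasts by delivery of Cre and by transplantation were not used to choose the chromosome. The medians compared here nevertheless come from the log ratios that chose it, so nothing is concluded from either test. The chromosome 4 median averaged 0.10 ± 0.13 in Ad-Cre tumours (SD, n = 2) and 0.04 ± 0.07 in MMTV-Cre tumours (SD, n = 7). The difference of 0.06 gave p = 0.472 in an exact two-sided permutation test over 36 groupings, whose smallest p is 0.0278. On the only scan day that held both kinds of tumour the difference was 0.06 (exact permutation p = 0.667). That day held only the Ad-Cre transplants and the nulliparous and parous tumours, too few for a small p. The Ad-Cre tumours there were transplants and the MMTV-Cre ones were not, so delivery and transplantation cannot be told apart on it. Over all scan days the direction turned without Ad-Cre transplant 1, where the difference was -0.03, and when arrays were centred on the mode, where it was -0.01.

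MMTV-Cre transplants averaged 0.05 ± 0.09 (SD, n = 5), and the other MMTV-Cre tumours 0.04 ± 0.04 (SD, n = 2). The difference of 0.01 gave p = 0.905 in an exact two-sided permutation test over 21 groupings, whose smallest p is 0.0476. It turned to -0.02 without the parous tumour and to -0.03 without MMTV-Cre transplant 1. No scan day held both kinds, so scan day and transplantation cannot be told apart.

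Across all 9 tumours against the pool, limma with Benjamini-Hochberg adjustment called 243 of 1449 chromosome 4 windows higher, which is 16.8%, beside 17.1% of all autosomal windows. It called 43 lower, which is 2.97%, beside 19.8% of all autosomal windows. The rule for choosing the chromosome used this contrast, and nothing is read from these shares. The count of lower windows rested on single libraries, being 13 without MMTV-Cre transplant 4, 18 without MMTV-Cre transplant 5, 21 without MMTV-Cre transplant 2, 23 without MMTV-Cre transplant 3 and 27 without the nulliparous tumour. The count of higher windows was 138 without MMTV-Cre transplant 1 and 148 without MMTV-Cre transplant 5.

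At the border of the probes left out, values changed within a short distance. In MMTV-Cre transplant 4 the last 20 probes before the border averaged 0.39 and the first 20 left out averaged 1.40. On the far side the last 20 left out averaged 0.97 and the first 20 beyond averaged 0.02. In the nulliparous tumour the same 4 groups of probes lay between -0.04 and 0.08.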

How the data were processed

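Per the file headers, the authors read the scans with Agilent Feature Extraction 10.5.1.1. Their deposited processed signals are intensity values per spot and channel, already corrected for background and dye, and the deposited median signals are intensity values before correction. The authors' ratios are on the log10 scale (Cy5 over Cy3), and a deposited table of the whole series gives these log10 ratios in rounded form. The build and aligner are not given in the sources used here. A gene table of another build served for chromosome membership only.

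The log2 ratio of processed signals was computed per probe, without control spots and without spots not well above background in the pool channel or marked as outliers (1597 to 2115 of 967261 per array), and centred on the autosomal median. Autosomal probes in bins of 5 were segmented by penalised least squares (PELT, penalty factor 10, at least 2 bins). Calls used ±0.25 and steps of 0.2. Levels came from a least-squares split of segment means weighted by probes. Windows of 100 kb with at least 3 probes were tested against 0 with limma 3.58.1 (threshold 0.05, R 4.3.3). Scripts used matplotlib 3.10.9, numba 0.67.0, scipy 1.17.1, numpy 2.4.6, pandas 2.3.3 and Python 3.11.15, and were tested on simulated data. Precision of the means is limited by how few arrays there are.

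Segments were named by a rule: in MMTV-Cre transplant 4 the 6 lowest and 4 highest of at least 1 Mb and the 4 lowest and 4 highest of the shorter ones, and in each other tumour the 2 longest and the 2 largest in size among those called. Other segments, the single steps and the run in MMTV-Cre transplant 2 were chosen after their values were seen. The run on chromosome 11 was the lowest of 4 probes that lay 0.5 or more below its surroundings in at least 7 tumours. The probes, the lists and the tests were chosen with earlier results of these data known. Alternatives were normexp correction (offset 50), loess, the series table, other centring, filters, segmentation, thresholds, windows, a scan-day block and each tumour left out. Taking off the other arrays' median, a minimum of 20 probes and leaving out MMTV-Cre transplants 2 and 4 together were added after seeing the data.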

Additional observations from a re-analysis of the deposited data

Results flagged for a closer look

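Among the 5 MMTV-Cre transplants, MMTV-Cre transplant 4 lay far from the others in its chromosome 4 breakpoints, with 45 against 2 to 4. It also stood apart in the share of segmented length in lost segments, at 17.8% against at most 0.00990% in the other MMTV-Cre transplants. The same held for the mean of its lost minus its retained stretches, at -0.69 against -0.09 to -0.06. These 3 values are measures of the one pattern that chose the chromosome. After the other arrays' median was taken off, its 63 breakpoints, counted over segments of any size, no longer stood apart in this way among the transplants, as MMTV-Cre transplant 2 had 42, and the parous and nulliparous tumours had 63 and 57. MMTV-Cre transplant 2 lay far from the other transplants in the lowest run of the chromosome relative to its surroundings, at -2.31. For values not chosen on the data, such a distance arises by chance in about 1 in 20 groups. The pattern and the run were both chosen on these data, so that rate does not apply to them.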

How the results depend on the processing

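Breakpoints of MMTV-Cre transplant 4 stayed between 34 and 67 over 14 alternatives. Its level gap lay between 0.57 and 0.75 over 12 alternatives, and the sign of that gap is fixed by how levels are made. The lost minus retained difference of the log ratios themselves in the other tumours kept its direction (19 alternatives, between -0.0738 and -0.0591). So did the mean of the medians (15 alternatives). The lost share moved to 25% at a threshold of 0.15, and the gained share to 2.83% at 0.4 and 11.9% with the other arrays' median taken off. The Ad-Cre minus MMTV-Cre difference turned to -0.0147 with centring on the mode, and lay between -0.0322 and 0.148 with 1 tumour left out. The difference of MMTV-Cre transplants from other MMTV-Cre tumours lay between -0.0251 and 0.0382 with 1 tumour left out, being negative without the parous tumour (-0.0197) and without MMTV-Cre transplant 1 (-0.0251). Higher chromosome 4 windows, 243 in the analysis as reported, numbered 421 with normexp, 158 with mode centring, 40 of 298 windows of 500 kb, 455 with scan day as a block (correlation -0.18), and 138 to 302 with 1 tumour left out. Lower windows, 43 as reported, numbered 10 with normexp, 22 with loess, 120 with mode centring, 2 of 298 windows of 500 kb, 103 with the block, 4 without MMTV-Cre transplants 2 and 4, and 13 to 57 with 1 tumour left out. The causes were not tested. No paired analysis was possible because the labels give no replicate numbers that groups share. The pattern of MMTV-Cre transplant 4 comes from 1 array without a dye swap, and signal over background and the penalty limit how short a step can be seen.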
